A study of Mus musculus with 4 samples.

Results

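The miR-106b-25 cluster of the mouse holds the precursors of miR-106b, miR-93 and miR-25 in 1 intron of Mcm7. Its 6 mature miRNAs, a 5p and a 3p arm from each of the 3 precursors, were followed here by exact name among the 869 miRNAs detected in at least 1 of 4 small RNA libraries of C2C12 myotubes. All 6 were detected in all 4 libraries. C2C12 is a murine skeletal muscle cell line that fuses into myotubes when serum is withdrawn, and its label gives the strain background as 129/Rej. Every culture was moved at high confluence from growth medium to differentiation medium with 2% horse serum and was harvested on day 6. The 2 GAA samples received 20 mM guanidinoacetic acid, the direct precursor of creatine, in that medium, and the 2 negative control (NC) samples did not. The labels do not say that the samples of a group came from separate cultures, so the p-values rest only on spread between these samples, which may be technical. In the limma fits this spread was partly pooled over miRNAs.

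Mcm7 encodes a subunit of the helicase that unwinds DNA at replication origins, and the miRNAs in its intron are cut from the same primary transcript, which E2F transcription factors activate in proliferating cells. A miRNA finds its targets mainly through the seed, bases 2 to 8 of the mature strand. miR-106b-5p and miR-93-5p belong to the miR-17 family, which represses the cell cycle inhibitor Cdkn1a (p21), and miR-25-3p belongs to the miR-92 family, which represses the pro-apoptotic gene Bcl2l11 (Bim). The cluster is a paralogue of the miR-17-92 cluster, and myoblasts leave the cell cycle before they fuse. Neither Mcm7 mRNA nor any target was measured in these libraries.

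The mature sequences are shown because the seeds define which members can share targets and which other miRNAs could share their reads. They were taken from RefSeq (GRCm38.p6), and the capitals mark bases 2 to 8.
miR-106b-5p: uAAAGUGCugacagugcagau
miR-93-5p: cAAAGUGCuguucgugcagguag
miR-25-3p: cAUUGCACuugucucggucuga
miR-106b-3p: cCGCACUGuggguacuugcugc
miR-93-3p: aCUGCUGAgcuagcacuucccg
miR-25-5p: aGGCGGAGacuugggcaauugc

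The seed AAAGUGC was shared by miR-106b-5p and miR-93-5p, which otherwise differed at 5 of 21 positions compared without gaps from the 5′ end. miR-25-3p carried another seed, AUUGCAC. Among the mature mouse miRNAs of RefSeq 7 had the first seed and 6 had the second, and the seeds of miR-106b-3p, miR-93-3p and miR-25-5p occurred in no other mature sequence of that set. Abundant relatives outside the cluster, whose reads could be confused with those of the members, were miR-17-5p, miR-20a-5p and miR-92a-3p.
miR-17-5p: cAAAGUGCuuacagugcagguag
miR-20a-5p: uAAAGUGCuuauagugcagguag
miR-92a-3p: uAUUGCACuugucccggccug
miR-106b-5p differed from miR-17-5p and from miR-20a-5p at 3 of 21 positions, miR-93-5p differed from each of them at 4 of 23, and miR-25-3p differed from miR-92a-3p at 3 of 21. Other relatives were as close or closer but rare, since miR-106a-5p differed from miR-106b-5p at 3 of 21 positions and miR-20b-5p from miR-93-5p at 3 of 23, and both were under 1 RPM in every sample. Short or trimmed reads could be assigned to either of such near-identical strands, so the values of these pairs are uncertain to the extent that reads were shared.

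All 3 hairpins lie on the minus strand of chromosome 5 (GRCm38), inside Mcm7 (ENSMUSG00000029730.16, chr5:138164583-138172422, GENCODE M21). They are shown with both mature arms in capitals, because the arms of 1 hairpin are compared with each other in the results.
Mir106b: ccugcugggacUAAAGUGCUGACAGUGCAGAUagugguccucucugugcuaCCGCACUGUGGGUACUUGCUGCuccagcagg
Mir93: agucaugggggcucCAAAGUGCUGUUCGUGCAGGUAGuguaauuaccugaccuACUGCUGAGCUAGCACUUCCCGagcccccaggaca
Mir25: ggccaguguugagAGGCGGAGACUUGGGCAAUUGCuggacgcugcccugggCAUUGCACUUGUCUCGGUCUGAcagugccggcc
In the direction of transcription Mir106b comes first (chr5:138165737-138165818), Mir93 second (chr5:138165523-138165610) and Mir25 last (chr5:138165321-138165404). Mir106b and Mir93 are separated by 126 bases and Mir93 and Mir25 by 118 bases, and the whole stretch covers 498 bases. In the transcript Mcm7-201 all 3 hairpins fall in intron 13 of 14, which is 748 bases long, and in Mcm7-208 they fall in intron 8 of 8. Mir93 and Mir25, but not Mir106b, also fall within an exon (chr5:138165052-138165716) of Mcm7-202, a transcript annotated as a retained intron.

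The NC libraries held 4924776 and 4732359 mappable reads and the GAA libraries 5566502 and 5657704, with 622 to 701 miRNAs detected per library. Known miRNAs took 33.6% and 43.6% of these reads in NC, and 56.3% and 50.4% in GAA. Levels are therefore given on a pair of scales, as reads per 1000000 mappable reads (RPM) and as the share of a miRNA in the summed miRNA RPM of its library, in parts per 1000000 (ppm). In bulk RNA, fewer cells of a type and less RNA per cell cannot be told apart. All 7 listed skeletal muscle miRNAs were detected, with summed levels of 10480 and 13715 RPM in NC and 11218 and 10533 RPM in GAA, of which miR-486a-5p alone made up 4849 and 6615 RPM in NC and 6700 and 5640 RPM in GAA. In RPM 5 of these 7 (miR-1a-3p, miR-133a-3p, miR-206-3p, miR-499-5p and miR-208b-3p) had both GAA samples below both NC samples. Of the 371 miRNAs with at least 1 RPM in every sample, 10 did so in RPM. As a share all 7 did, beside 68 of those 371 (18.3%). miR-208b-3p, from an intron of a slow myosin gene, was the 1 miRNA of all that limma called as a share (log2 fold change -3.30, adjusted p = 0.00639), and its log2 fold change in RPM was -2.62 (adjusted p = 0.205). The 4 listed miRNAs of blood cells or serum summed to 8.33 and 3.80 RPM in NC and 3.59 and 2.47 RPM in GAA, and miR-126a-3p of endothelium had between 1.06 and 3.23 RPM. The liver miRNA miR-122-5p was at 0 in both NC samples and at 3.05 and 0.354 RPM in GAA, and the neuronal pair miR-124-3p and miR-9-5p, of which almost all was miR-9-5p, summed to 28.0 and 41.4 RPM in NC and 59.8 and 43.1 RPM in GAA. The part of these muscle miRNAs and other RNA sources in the results was not tested. A single read was worth 0.177 to 0.211 RPM, and 3 reads, the level that a count of 0 allows, were worth 0.530 to 0.634 RPM. These floors and the intervals below cover counting error only.

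The whole cluster was sequenced 6802 and 7227 times in NC and 12292 and 10784 times in GAA. Its summed level was 1381 and 1527 RPM in NC and 2208 and 1906 RPM in GAA, a mean of 1454 ± 103 against 2057 ± 214 RPM (SD, n = 2 per group), or 1.41 times as much. Both GAA samples lay above both NC samples, with an exact two-sided permutation p of 0.333, which is the smallest that 2 against 2 samples can give. Within the miRNA pool the cluster took 0.411% and 0.350% of the miRNA RPM in NC and 0.392% and 0.378% in GAA. These shares overlapped, at 0.381 ± 0.0434% in NC and 0.385 ± 0.00983% in GAA (exact permutation p = 1). The mean log2 difference between the groups was 0.50 in RPM, 0.02 as a share and -0.03 after scaling by median-of-ratios factors, so its direction depended on the divisor. The 3 precursors differed among themselves, since miR-25 and miR-106b had larger shares in GAA than in NC and miR-93 had a smaller one.

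**Figure D1:**
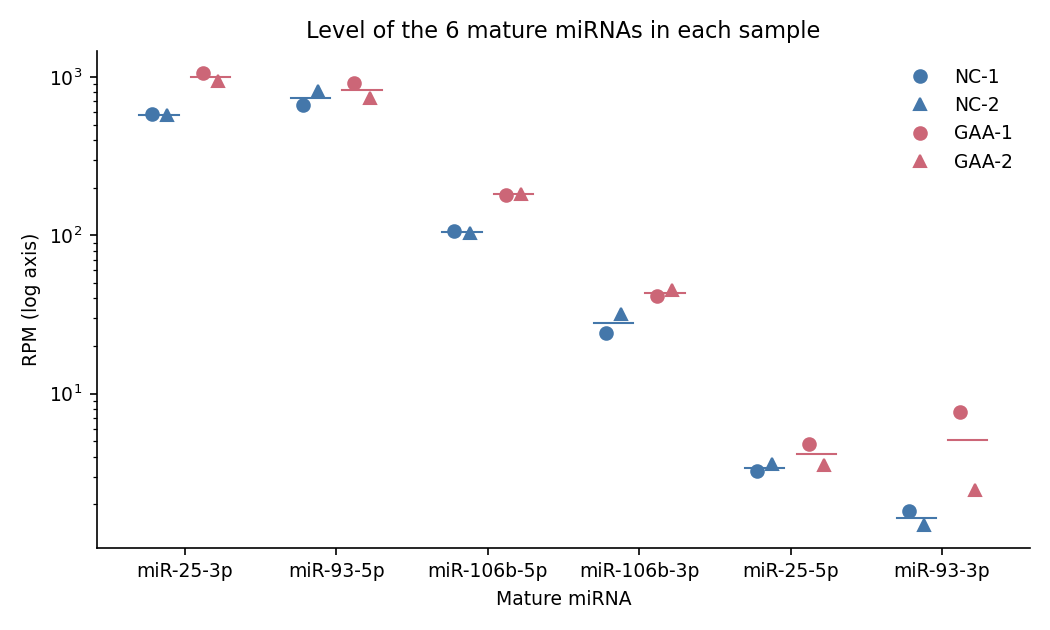
The level of each of the 6 mature miRNAs is plotted in RPM on a log axis, with 1 point per sample (NC in blue, GAA in red, circles for replicate 1 and triangles for replicate 2) and a line at each group mean. The GAA points lie above the NC points for miR-25-3p, miR-106b-5p, miR-106b-3p and miR-93-3p, and they overlap for miR-93-5p and miR-25-5p.

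miR-106b-5p, the more abundant arm of the first hairpin, was at 106.4 and 103.8 RPM in NC and at 181 and 183 RPM in GAA. The replicates of each group lay close together (105 ± 1.87 and 182 ± 1.81 RPM), and both GAA samples were above both NC samples. Its log2 fold change was 0.79 ± 0.14 (SE) with an adjusted p of 0.205 in limma. That SE was partly borrowed from other miRNAs, since the replicates of miR-106b-5p differed by only 0.036 in NC and 0.020 in GAA on the log2 scale. As a share of the miRNA RPM it took 317 and 238 ppm in NC and 321 and 364 in GAA. Here the upper NC sample and the lower GAA sample differed by little, and the log2 fold change was 0.32 ± 0.21 (SE; limma adjusted p = 0.777), or 0.11 without NC-2 and 0.52 without NC-1.

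miR-106b-3p, from the other arm of that hairpin, was at 24.2 and 31.7 RPM in NC and at 41.5 and 45.2 RPM in GAA. Both GAA samples were above the NC samples, by a log2 fold change of 0.63 ± 0.21 (SE; limma adjusted p = 0.274). Its share was 72.0 and 72.6 ppm in NC and 73.7 and 89.8 in GAA, so the groups did not overlap, although NC-2 and GAA-1 lay nearly level (log2 fold change 0.17, limma adjusted p = 0.781).

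miR-93-5p was at 664 and 812 RPM in NC and at 921 and 733 RPM in GAA. The groups overlapped, since GAA-2 lay below NC-2, and the log2 fold change was 0.16 ± 0.21 (SE; limma adjusted p = 0.635). Its share was 1976 and 1860 ppm in NC and 1635 and 1455 in GAA. No other of the 6 members had both GAA shares below both NC shares. The means were 1918 ± 82.0 ppm in NC and 1545 ± 127 ppm in GAA (SD, n = 2), a log2 fold change of -0.31 ± 0.18 (SE; limma adjusted p = 0.774).

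miR-93-3p was a rare strand with 9 and 7 reads in NC and 43 and 14 reads in GAA. This gave 1.83 and 1.48 RPM in NC and 7.72 and 2.47 RPM in GAA. GAA-1 alone set most of its high GAA mean of 5.10 ± 3.71 RPM, and the log2 fold change of 1.06 ± 0.52 (SE; limma adjusted p = 0.361) became 0.39 without GAA-1 and 1.72 without GAA-2. Its shares overlapped between the groups, at 5.44 and 3.39 ppm in NC and 13.7 and 4.91 in GAA.

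miR-25-3p, the last member in the transcript, was at 582 and 575 RPM in NC and at 1053 and 938 RPM in GAA. Both GAA samples lay well above both NC samples, at 996 ± 80.9 against 578 ± 5.08 RPM (SD, n = 2), 1.72 times as much. Its log2 fold change of 0.78 ± 0.16 (SE; limma adjusted p = 0.205) was close to the 0.79 of miR-106b-5p. As a share it took 1733 and 1317 ppm in NC and 1870 and 1862 in GAA, again without overlap (log2 fold change 0.30 ± 0.20 SE, limma adjusted p = 0.777). That change was 0.11 without NC-2 and 0.50 without NC-1.

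miR-25-5p, its opposite strand, was at 3.25 and 3.59 RPM in NC and at 4.85 and 3.54 RPM in GAA, from 16 to 27 reads per library. GAA-2 lay between the NC samples, and the log2 fold change was 0.22 ± 0.25 (SE; limma adjusted p = 0.570). Its shares overlapped too, at 9.67 and 8.23 ppm in NC and 8.61 and 7.02 in GAA, and there the sign of the difference turned (log2 fold change -0.18, limma adjusted p = 0.883).

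None of the 6 members was called at an adjusted p under 0.01 with a log2 fold change above 1 or below -1. On the RPM scale limma called 0 of all 869 miRNAs (0%), and on the share scale it called 1 (0.115%). At an unadjusted p under 0.05, limma passed 3 members in RPM (miR-106b-5p, miR-25-3p and miR-106b-3p), where 152 of 869 miRNAs (17.5%) passed, and 0 members as a share, where 70 (8.06%) passed. The lowest adjusted p in RPM, 0.205, was shared by 44 miRNAs, among them miR-106b-5p and miR-25-3p.

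The members were set beside all miRNAs with at least 1 RPM in every sample. In RPM, 4 of the 6 members had both GAA samples above both NC samples, beside 239 of 371 miRNAs (64.4%), a share near the background. As a share, 3 of 6 did (miR-106b-5p, miR-106b-3p and miR-25-3p), beside 83 of 371 (22.4%), and 1 of 6 had both GAA samples below (miR-93-5p), beside 68 of 371 (18.3%). The median log2 fold change of the 371 miRNAs was 0.49 in RPM and 0.04 as a share. Relative to that shift in RPM, miR-106b-5p, miR-106b-3p, miR-25-3p and miR-93-3p lay above the median and miR-93-5p and miR-25-5p below it. The median of the 6 members was 0.70 in RPM, with 6 higher means, and 0.24 as a share, with 4 higher and 2 lower means, beside 340 of the 371 miRNAs with a higher mean in RPM and 205 of 371 as a share.

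**Figure D2:**
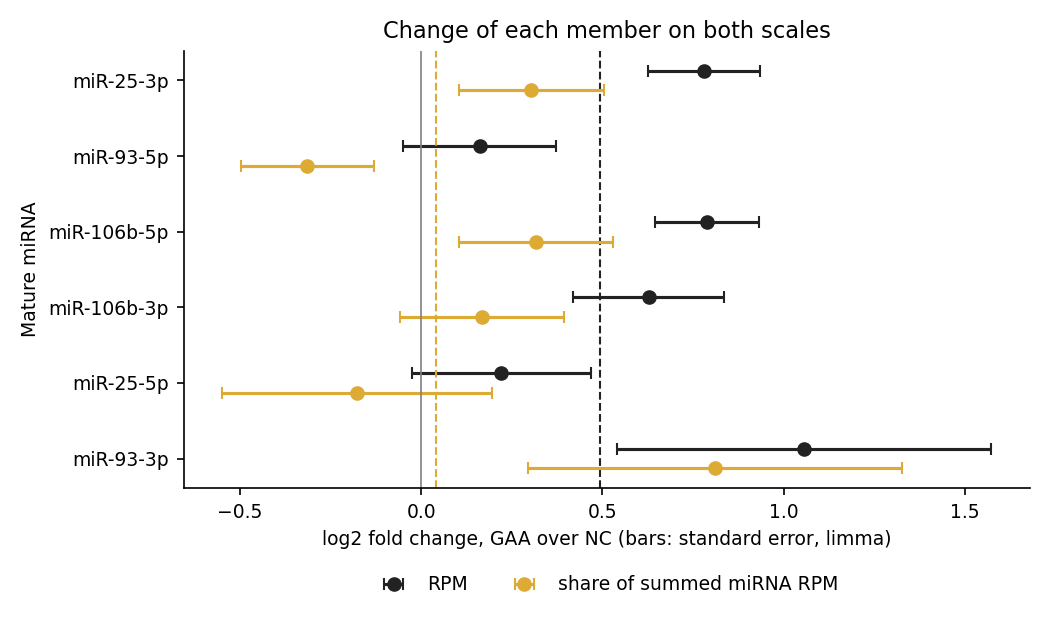
Each member has its log2 fold change (GAA over NC) plotted in RPM (black) and as a share of the summed miRNA RPM (yellow), with limma standard errors as bars and dashed lines in the same colours at the medians of the 371 miRNAs with at least 1 RPM in every sample (0.49 and 0.04). miR-93-5p and miR-25-5p lie left of the median on both scales, and the other 4 members lie right of it.

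The members spanned a wide range of levels. By mean RPM over the 4 samples miR-25-3p ranked 54 of 869, miR-93-5p 55, miR-106b-5p 113, miR-106b-3p 178, miR-25-5p 318 and miR-93-3p 326. The first pair could not be ordered over all samples. The ratio of miR-25-3p to miR-93-5p was 0.877 and 0.708 in NC and 1.14 and 1.28 in GAA, so that miR-93-5p was the leading member in both NC samples and miR-25-3p in both GAA samples. miR-93-5p was 3.995 to 7.82 times as high as miR-106b-5p in the 4 samples, and miR-106b-5p was 3.27 to 4.40 times as high as miR-106b-3p. miR-106b-3p in turn was 7.44 to 12.8 times as high as miR-25-5p. The lowest pair was not ordered either, since miR-93-3p exceeded miR-25-5p in GAA-1 and lay below it in the other 3 samples.

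Ratios between partners of 1 transcript do not depend on the divisor. Summed over both arms, miR-93 was 1.14 and 1.41 times as high as miR-25 in NC and 0.878 and 0.781 times as high in GAA. The difference of the mean log2 ratio was -0.61, without overlap of the groups. miR-93 was 5.10 and 6.00 times as high as miR-106b in NC and 4.17 and 3.22 times as high in GAA, a difference of -0.59, again without overlap. In contrast, miR-25 was 4.48 and 4.27 times as high as miR-106b in NC and 4.76 and 4.12 times as high in GAA, a difference of 0.02 with overlapping groups. Over these 3 pairs the exact permutation p was 0.333, 0.333 and 1, and 0.5, 0.5 and 1 after Benjamini-Hochberg adjustment, so none could pass a threshold of 0.05 with 2 samples a group. The range of the ratio of miR-25 to miR-106b over all 4 samples was narrow beside that of either ratio with miR-93.

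Expressed as parts of the cluster, miR-93 supplied 48.2% and 53.3% of its RPM in NC and 42.0% and 38.6% in GAA. miR-25 supplied 42.4% and 37.9% in NC and 47.9% and 49.4% in GAA, and miR-106b 9.45% and 8.87% in NC and 10.1% and 11.999% in GAA. For each precursor the groups did not overlap (exact permutation p = 0.333 for each, the smallest possible here). No like count over other clusters was made for these parts or for the partner ratios, so how common such separation is was not tested. The mean part of miR-93 went from 50.7 ± 3.59% in NC to 40.3 ± 2.44% in GAA (SD, n = 2), and that of miR-25 from 40.1 ± 3.18% to 48.7 ± 1.08%. The 3 parts of 1 sample add up to the whole and are not independent.

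**Figure D3:**
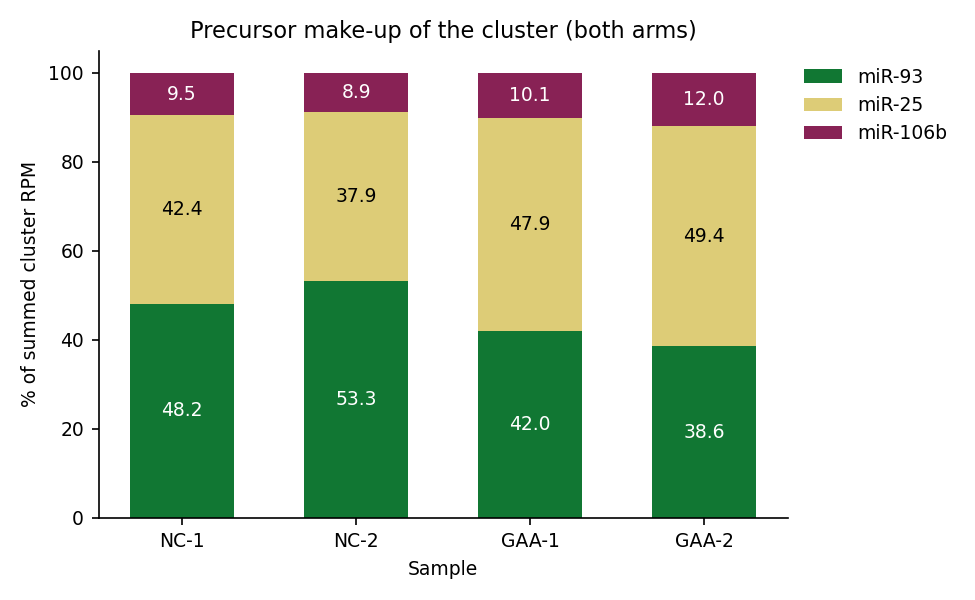
Stacked bars give the percentage of the summed cluster RPM that came from miR-93, miR-25 and miR-106b, both arms added, in each of the 4 samples. The miR-93 part is 48.2% and 53.3% in NC and 42.0% and 38.6% in GAA.

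The hairpins differed in how evenly they gave rise to their arms. miR-106b kept both strands, since miR-106b-3p made up 18.5% (95% Wilson interval 15.7 to 21.7%) and 23.4% (20.3 to 26.8%) of the reads of both arms in NC, and 18.7% (16.6 to 20.9%) and 19.8% (17.7 to 22.0%) in GAA. miR-93 and miR-25 were almost entirely of 1 strand, the 5p strand for miR-93 and the 3p strand for miR-25. miR-93-3p made up 0.275% (0.145 to 0.521%) and 0.182% (0.0881 to 0.375%) of its pair in NC, and 0.832% (0.618 to 1.12%) and 0.336% (0.201 to 0.564%) in GAA. Its interval in GAA-1 lay above those of the other 3 samples, which overlapped one another. miR-25-5p made up 0.555% (0.342 to 0.900%) and 0.621% (0.388 to 0.992%) in NC, and 0.459% (0.315 to 0.666%) and 0.375% (0.243 to 0.579%) in GAA, with overlapping intervals in all 4 samples.

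Among 110 precursor names with both arms at 1 RPM or more in every sample, the median share of the less abundant arm was 6.74%. This share was smaller than that of miR-106b in 72 of them, smaller than that of miR-93 in 13 and smaller than that of miR-25 in 15. The log2 ratio of the 5p to the 3p arm, with 1 RPM added to each arm, changed from NC to GAA by 0.16 ± 0.37 (SE) for miR-106b. It changed by -0.56 ± 0.37 for miR-25 and by -0.89 ± 0.37 for miR-93, with limma adjusted p of 0.996, 0.810 and 0.327 for the 3. In this fit limma pooled the variance over all 110 precursors, so the SE was the same for each. The SE and the p-values therefore do not measure the spread of the ratio of a single precursor. None of the 3 was called, beside 0 of the 110 (0%). At an unadjusted p under 0.05 limma passed 1 of the 3, miR-93, beside 6 of 110 (5.45%), and for 2 of the 3 (miR-93 and miR-25) both GAA ratios lay below both NC ratios, beside 25 of 110 (22.7%). With 0.1 RPM added instead of 1, the changes were 0.15 for miR-106b, -0.51 for miR-25 and -1.20 for miR-93. The change for miR-93 with 1 RPM added was -0.39 without GAA-1 and -1.39 without GAA-2, and it rests on the reads of miR-93-3p given above.

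**Figure D4:**
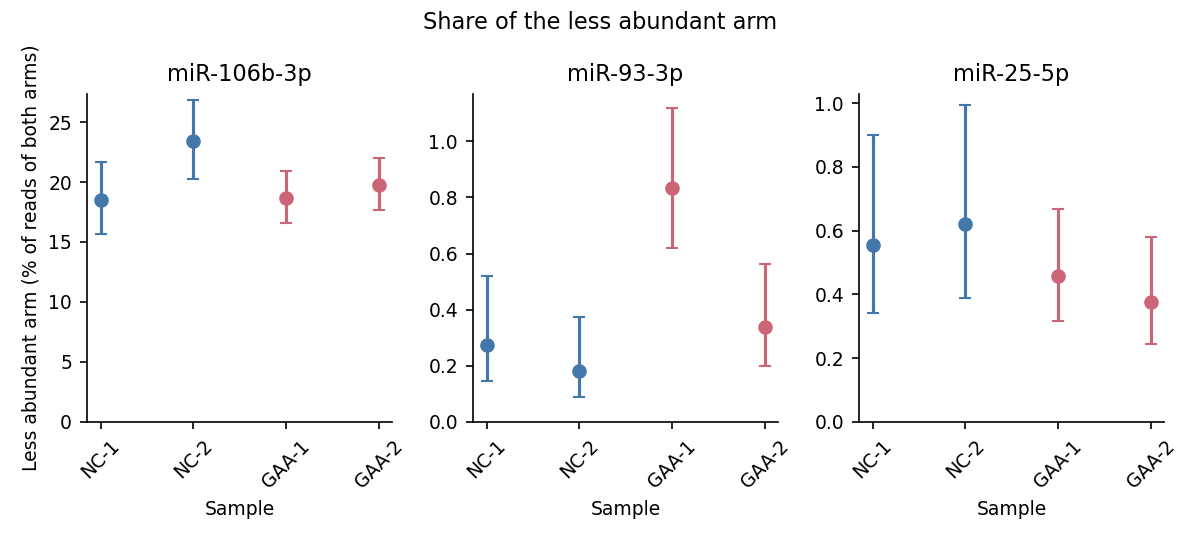
The share of the less abundant arm in the reads of both arms is plotted in percent for each sample (NC in blue, GAA in red) with 95% Wilson intervals as bars, in 1 panel per hairpin with its own axis from 0. miR-106b-3p lies between 18.5% and 23.4%, and both other strands stay under 1% in all 4 samples.

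The seed AAAGUGC, common to miR-106b-5p and miR-93-5p, was carried by 6 detected miRNAs with a summed level of 974 and 1152 RPM in NC and 1497 and 1150 RPM in GAA. The groups overlapped, at 1063 ± 126 and 1323 ± 246 RPM (SD, n = 2). The Mcm7 cluster supplied 79.0% and 79.5% of this family in NC and 73.6% and 79.7% in GAA. Within it miR-93-5p made up 68.1% and 70.5% in NC and 61.5% and 63.8% in GAA, without overlap, and miR-106b-5p 10.9% and 9.004% in NC and 12.1% and 16.0% in GAA, also without overlap. Most of the remainder came from miR-17-5p (118 and 128 RPM in NC, 227 and 133 RPM in GAA) and miR-20a-5p (86.1 and 108 RPM in NC, 168 and 100 RPM in GAA). GAA-1 was thus the high sample for both, and GAA-2 lay near or within the range of the NC samples.

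The seed AUUGCAC of miR-25-3p was carried by 5 detected miRNAs. Their summed level was 1038 and 1166 RPM in NC and 2088 and 1847 RPM in GAA, 1.79 times as much and without overlap. miR-25-3p supplied 56.1% and 49.3% of it in NC and 50.4% and 50.8% in GAA, and nearly all of the rest was miR-92a-3p. This strand is encoded in both the miR-17-92 and the miR-106a-363 cluster, and its reads do not tell the loci apart. miR-92a-3p was at 432 and 570 RPM in NC and at 1005 and 874 RPM in GAA, both GAA samples above both NC samples, with a log2 fold change of 0.92 ± 0.21 (SE; limma adjusted p = 0.206) in RPM and 0.44 as a share (limma adjusted p = 0.550). The ratio of the AAAGUGC family to the AUUGCAC family was 0.939 and 0.988 in NC and 0.717 and 0.623 in GAA, without overlap (exact permutation p = 0.333).

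**Figure D5:**
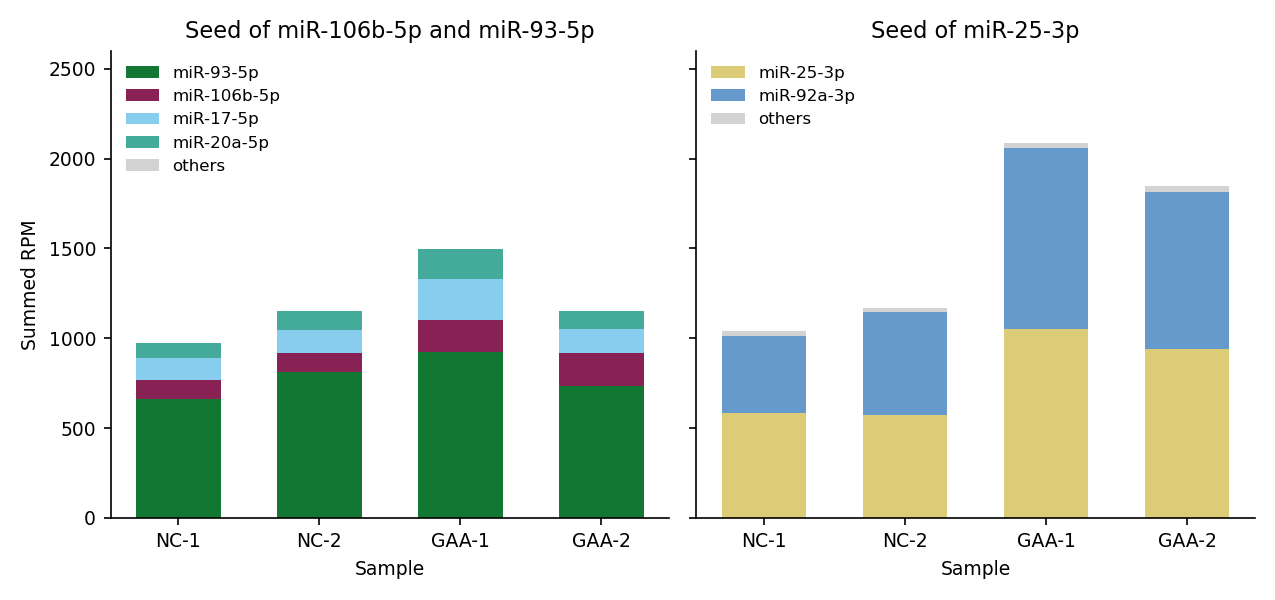
Stacked bars give the summed RPM of the miRNAs with the seed of miR-106b-5p and miR-93-5p (left) and with the seed of miR-25-3p (right) in each sample, split by miRNA. The right-hand bars are 1038 and 1166 RPM in NC and 2088 and 1847 RPM in GAA, while the left-hand bars of the groups overlap.

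Of 25 listed miRNAs of the paralogous miR-17-92 and miR-106a-363 clusters and other seed relatives, 18 were detected. Of these 17 had a higher mean in GAA in RPM and 1 a lower one (miR-19a-5p, under 1 RPM in every sample), beside 654 higher of all 869 miRNAs. For the 12 with at least 1 RPM in every sample the median log2 fold change was 0.52 in RPM beside 0.49 over the 371 miRNAs at that level, and 0.08 as a share beside 0.04. All 12 had a higher mean in RPM, where 340 of the 371 did. As a share 13 of the 18 were higher and 5 lower, beside 489 higher and 380 lower of the 869. None was called by limma on either scale, and 4 of 18 passed an unadjusted p under 0.05 in RPM, beside 17.5% of the 869, and 1 of 18 as a share, beside 8.06%. The miRNAs of the miR-17-92 cluster, with miR-92a-3p and miR-19b-3p counted in it although miR-106a-363 encodes them too, summed to 1012 and 1342 RPM in NC and 2267 and 1515 RPM in GAA. Relative to that sum the Mcm7 cluster was 1.36 and 1.14 times as high in NC and 0.974 and 1.26 times as high in GAA, and these ratios overlapped (exact permutation p = 0.667). miRNAs found only in miR-106a-363 summed to between 0.634 and 2.16 RPM.

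The pattern over the 4 samples was compared with that of 219 other miRNAs with at least 10 RPM in every sample, by the Euclidean distance of log2(RPM + 1) centred on its mean. With 4 samples, many profiles are alike, and the distances are a description. The members of the cluster were left out of the rankings. The summed cluster lay nearest to miR-450a-5p (distance 0.02), miR-99a-5p (0.07) and miR-18a-5p (0.07), the last a member of miR-17-92. miR-106b-5p lay nearest to let-7i-3p (0.09), miR-574-3p (0.09) and miR-34c-3p (0.16), and miR-25-3p nearest to miR-34b-3p (0.09), miR-574-3p (0.10) and miR-29a-3p (0.10). The distance between miR-106b-5p and miR-25-3p was 0.13, shorter than that between miR-106b-5p and miR-34c-3p. miR-93-5p lay nearest to miR-322-3p (0.12), miR-24-1-5p (0.13) and miR-486a-5p (0.13), and it lay at 0.71 from miR-106b-5p and at 0.67 from miR-25-3p.

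In the order of all miRNAs by mean RPM, miR-301a-3p (mean 920 RPM) stood just above miR-25-3p, and miR-21a-3p (776 RPM) just below miR-93-5p. The order of members and neighbours was not the same in all samples, since miR-25-3p exceeded miR-301a-3p in 1 of 4 samples and miR-93-5p exceeded miR-21a-3p in 2 of 4. miR-106b-5p likewise lay between miR-181a-1-3p (146 RPM) and miR-744-5p (143 RPM), exceeding the first in 2 of 4 samples and the second in 3 of 4. Between NC replicates the members differed by 0.02 (miR-25-3p) to 0.38 (miR-106b-3p) on the log2 scale, where the median of the 371 miRNAs was 0.28. Between GAA replicates they differed by 0.02 (miR-106b-5p) to 1.33 (miR-93-3p), where the median was 0.30. miR-93-3p in GAA was the one member whose replicates differed by more than 1 on this scale.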

How the data were processed

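Per the labels, small RNA of C2C12 myotubes was size-selected, ligated to adaptors and sequenced on an Illumina instrument. The authors filtered the reads, mapped them to GRCm38.p5, matched them to miRBase precursors with miRDeep2 and scaled each count to the mappable reads of its library (RPM). The deposited values were read as log2 values, log2(RPM + 1). The base and the added 1 are not stated in the labels and were inferred, since they turn the values into whole multiples of 1 step per library. A miRNA without reads has no row. Reads were recovered from the step that 1 read makes in RPM, and 95.4% to 96.0% of the values in each library, among them those of all 6 members, came out whole within 0.01 read. A single read was worth 0.177 to 0.211 RPM.

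The values were deposited as log2 values, and no count model was used, although reads were recovered from them. A linear model with a single condition term was fitted by limma 3.58.1 (R 4.3.3, trended eBayes) to log2(value + 1) over the 869 detected miRNAs. Fold changes are on that scale, which understates those of low miRNAs. The eBayes step drew the variance of each miRNA toward a trend over all 869. The SE and p-values of a member therefore do not measure its own spread alone. Benjamini-Hochberg adjustment of p-values ran over all 869. Calls needed an adjusted p under 0.01 and a log2 fold change beyond 1 in either direction, the thresholds of the study. The study applied them to read counts with edgeR and did report differentially expressed miRNAs, so the calls here do not repeat its test. The same fit was made on shares of the summed miRNA RPM. Arm ratios were fitted with limma without a trend over 110 precursor names. Single values were compared with exact two-sided permutation tests (scipy 1.17.1). The fits were tested on simulated data with changes far larger than those of the members. That test does not show how well changes as small as theirs would be found.

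The members, the list of related miRNAs and the markers were chosen with earlier results of these data known. Named miRNAs were the members, the related list, the markers, the 3 nearest patterns and the neighbours in level. No sequencing batch is given in the sources used here, so no within-batch comparison was made. Alternatives were other divisors, a pseudocount of 0.1, a filter at 1 RPM, an adjusted p threshold of 0.05 and eBayes without a trend. Further ones were a replicate block, each sample left out in turn, a minimum of 10 RPM for both arms, and the more abundant arm alone for partner ratios.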

Additional observations from a re-analysis of the deposited data

How the results depend on the processing

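Of 205 values recomputed under the alternatives, 191 kept their direction and their side of the threshold and 14 turned their sign. Part of this was fixed in advance. The replicate block, the fit without a trend and the filter at 1 RPM left the log2 fold change of each member as it was. They altered only its SE and p-value. The seed family percentages, also counted, have no sign or threshold to turn. Division by the summed miRNA RPM repeats the main fit on shares, so the count of kept values overstates how many could have changed. The exact permutation tests could not pass a threshold under any alternative, since their smallest possible p was 0.333. The number of members called was 0 under all 13 alternatives in RPM and all 10 as a share, and the lowest adjusted p of a member over them was 0.0916 in limma. miR-93-5p, at 0.16 in RPM on the log2 scale, ranged from -0.0020 (without GAA replicate 1) to 0.33 with 1 sample left out, and gave -0.23 when divided by the miRNA reads left after removing the 5 most abundant, -0.37 with median-of-ratios factors and -0.31 when divided by the summed miRNA RPM. miR-25-5p, at 0.22, gave -0.090, -0.20 and -0.18 with the same 3 divisors. The summed cluster level, 0.50 in RPM, gave -0.032 with median-of-ratios factors and ranged from 0.39 to 0.60 with 1 sample left out, and as a share (0.02) it ranged from -0.095 to 0.14. The log2 ratio of miR-25 to miR-106b (0.02) ranged from -0.087 to 0.12 with 1 sample left out and was -0.013 for the more abundant arms alone. The arm ratio of miR-106b (0.16) ranged from -0.047 (without NC replicate 2) to 0.37. For these turned signs the cause was not tested. As shares, the changes of miR-106b-5p and miR-25-3p ranged from 0.11 to 0.52 and from 0.11 to 0.50 with 1 sample left out, lowest without NC replicate 2. That of miR-106b-3p (0.17) ranged from 0.028 (without GAA replicate 2) to 0.31. With 1 sample left out, the lone sample of its group was assumed to vary like the other group. The groups share replicate numbers, but deviations of same-numbered samples from their group means correlated by -0.17 in RPM over 371 miRNAs, so the numbers were not taken as pairs. With the replicate number as a block, 0 members were called on either scale, limma called 0 of all miRNAs in RPM and 6 as a share (1 without the block), and the lowest adjusted p of a member was 0.412 in RPM and 0.676 as a share. With the numbers crossed, an alternative added after seeing the data, these counts of calls were 0 and 6. A minimum of 10 RPM for both arms left miR-106b as the only one of the 3 precursors. Depth limited the rare strands miR-93-3p and miR-25-5p, with 7 to 43 reads per library.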
